A study of Mus musculus with 16 samples.

Results

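Nascent transcription was compared between 6 Bru-seq libraries whose label names site b and 6 libraries of the same series whose label does not, out of 16 libraries in all. In Bru-seq, cells receive a short pulse of bromouridine and only RNA that carries it is pulled down for sequencing, so that reads come mostly from transcripts made during the pulse. All cells were F121-9 mouse embryonic stem cells, a hybrid with 1 castaneus (cast) and 1 129 copy of each chromosome, or edited derivatives of that line, grown in 2i plus LIF and pulsed with 2 mM bromouridine for 30 min. The 6 libraries with b were b.del (1 library), bc.del (1), ab.del (2) and abc.del (2). The 6 without b were a.del (1), ac.del (1), c.del (2) and the parental F121-9 (2). The letters stand for 3 sites, and the libraries therefore cover all 8 combinations of a, b and c. They give 4 pairs of genotypes whose labels differ by b alone. Neither where the sites lie nor which copy was edited is stated. Each label of an edited line ends in a code that may name a clone, and nothing says that libraries of 1 genotype were separate edits or cultures. P-values therefore measure the spread between these samples.

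On the 129 copy the gene of smallest p was Morc1. MORC1 is an ATPase known in mice for silencing transposons in male germ cells. Its neighbours Dppa2 and Dppa4 encode SAP-domain proteins that bind DNA as a pair in pluripotent cells and act on promoters of early embryonic genes. The 3 genes lie in 1 stretch of chromosome 16, and all are on the plus strand of mm10.

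Libraries with b held 9.33 to 20.6 M autosomal reads with a known copy (M, units of 1000000), and libraries without b 13.6 to 31.3 M. A count of 0 allows up to 3 reads, which is 0.129 to 0.273 CPM (counts per 1000000 reads of that copy) on the 129 copy with b and 0.0833 to 0.184 CPM without b. Embryonic stem cell markers were present in every library, with a summed level of 1567 to 2143 CPM over 8 genes with b and 1533 to 1963 CPM without b. Markers of feeder fibroblasts summed to at most 1.30 CPM over 10 genes with b and 1.89 CPM without b, with Twist1 at 0 throughout. Neural markers summed to 5.79 to 20.1 CPM over 7 genes with b and 5.05 to 38.9 CPM without b, with Neurod1 and Olig2 at 0. Primitive endoderm markers summed to 116 to 232 CPM over 9 genes with b and 109 to 219 CPM without b. Most of that was Lama1, with means of 177 and 139 CPM. Trophectoderm markers summed to 138 to 184 CPM over 8 genes with b and 89.3 to 200 CPM without b. Most of that was Tead4, with means of 152 and 136 CPM. The X copies were unequal in all 10 edited libraries, with or without b. All 6 libraries with b had unequal X copies, with 1.05% to 11.3% of X reads from 129 in 5 of them and 99.8% in b.del, while F121-9, without b, had 49.7% and 52.6%. The other 4 libraries without b were also unequal. X genes are not analysed here, and the part of the X in the autosomal results was not tested. Unequal autosomes occurred in 5 of 228 pairs of chromosome and library, all without b. They were chromosomes 1, 8 and 12 of a.del, with 99.8%, 35.1% and 0.440% of reads from 129, chromosome 3 of ac.del with 36.3%, and chromosome 3 of c.del replicate 1 with 33.8%. On the cast copy the median gene of chromosome 1 differed by 0.99 on the log2 scale between libraries with and without b, and by -0.08 without those 3 libraries.

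Morc1 (16:48431237-48630905) from the 129 copy gave 3.70 CPM in the lowest library with b, a median of 17.6 and 34.1 CPM in the highest, against 87.7, 183 and 469 CPM in the libraries without b. All 6 libraries with b lay below all 6 without b. The mean was 17.9 ± 12.6 CPM with b and 218 ± 151 CPM without b (SD, n = 6 each), a 12.2-fold lower level. In a limma fit over the 129 values of 13340 autosomal genes the log2 difference was -3.75 (SE 0.59), the smallest unadjusted p of that fit (1.7e-05), but the adjusted p was 0.228 and Morc1 did not pass 0.05. It passed when sites a and c were terms of the model (difference -3.65, limma adjusted p = 0.00343) and when the block of sample numbers was a term as well (-3.49, adjusted p = 0.00722). With 1 value per genotype and b as the only term the difference was also -3.65, but the limma adjusted p was 0.993. It also passed by DESeq2 on the recovered reads (-3.60, adjusted p = 5.9e-08) and not by edgeR. Within the first of the 2 runs of sample numbers in the series (4 libraries with b, 3 without) the difference was -4.48 (exact permutation p = 0.0286), and within the second (2 with, 3 without) -2.39 (exact permutation p = 0.1), each p being the smallest possible there. These were also the extremes over 32 other settings.

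The 4 pairs of genotypes whose labels differ by b alone share no library, but they differ in other ways too. The libraries b.del and F121-9 lie in different runs of sample numbers, as do abc.del and ac.del. From 129 came 99.8% of X reads in b.del, against 49.7% and 52.6% in F121-9. Unequal autosomes, given above, were those of a.del, ac.del and c.del replicate 1. The part of these in the pair differences was not tested. Morc1 from 129 gave 30.1 CPM in b.del against 272 in F121-9, a 9.06-fold lower level, and 25.7 CPM in ab.del against 469 in a.del, 18.2-fold lower. It gave 17.8 CPM in bc.del against 88.9 in c.del, 4.99-fold lower, and 3.95 CPM in abc.del against 115 in ac.del, 29.2-fold lower. The direction was thus the same in 4 of 4 pairs, and the size differed among them. The interaction of b with c was -0.23 (limma adjusted p = 0.941) and that of b with a was -1.81 (SE 0.53, unadjusted p = 0.00516, adjusted p = 0.419), so that neither passed.

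The cast copy of Morc1 showed no such separation. It gave 303 ± 19.9 CPM with b and 349 ± 143 CPM without b, with ranges of 265 to 319 and 250 to 635 CPM that overlapped. The log2 difference was -0.13 (SE 0.19, limma adjusted p = 0.998), and the highest library, a.del, set its sign, since it was 0.06 without a.del. Compared within each library, 129 minus cast averaged -4.52 ± 1.34 log2 units with b and -0.90 ± 0.77 without b. This gene had the smallest p of 12660 genes in that comparison too, with a difference of -3.63 (SE 0.60, limma adjusted p = 0.861), and did not pass.

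Read shares, which do not depend on the scaling of the columns, also separated the groups, though the order of libraries within a group differed. Of the Morc1 reads of b.del, 9.79% came from 129 (95% Wilson interval 8.83% to 10.8%, which like all such intervals covers counting error only), and of bc.del 5.93% did. The shares were 5.57% and 10.6% in ab.del and 1.45% and 1.37% in abc.del. Without b they were 44.7% in a.del, 31.2% in ac.del, 22.5% and 27.1% in c.del, and 48.1% and 52.7% in F121-9. The highest share with b was below the lowest without b, and the c.del and ac.del libraries were the lowest of those without b.

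**Figure D1:**
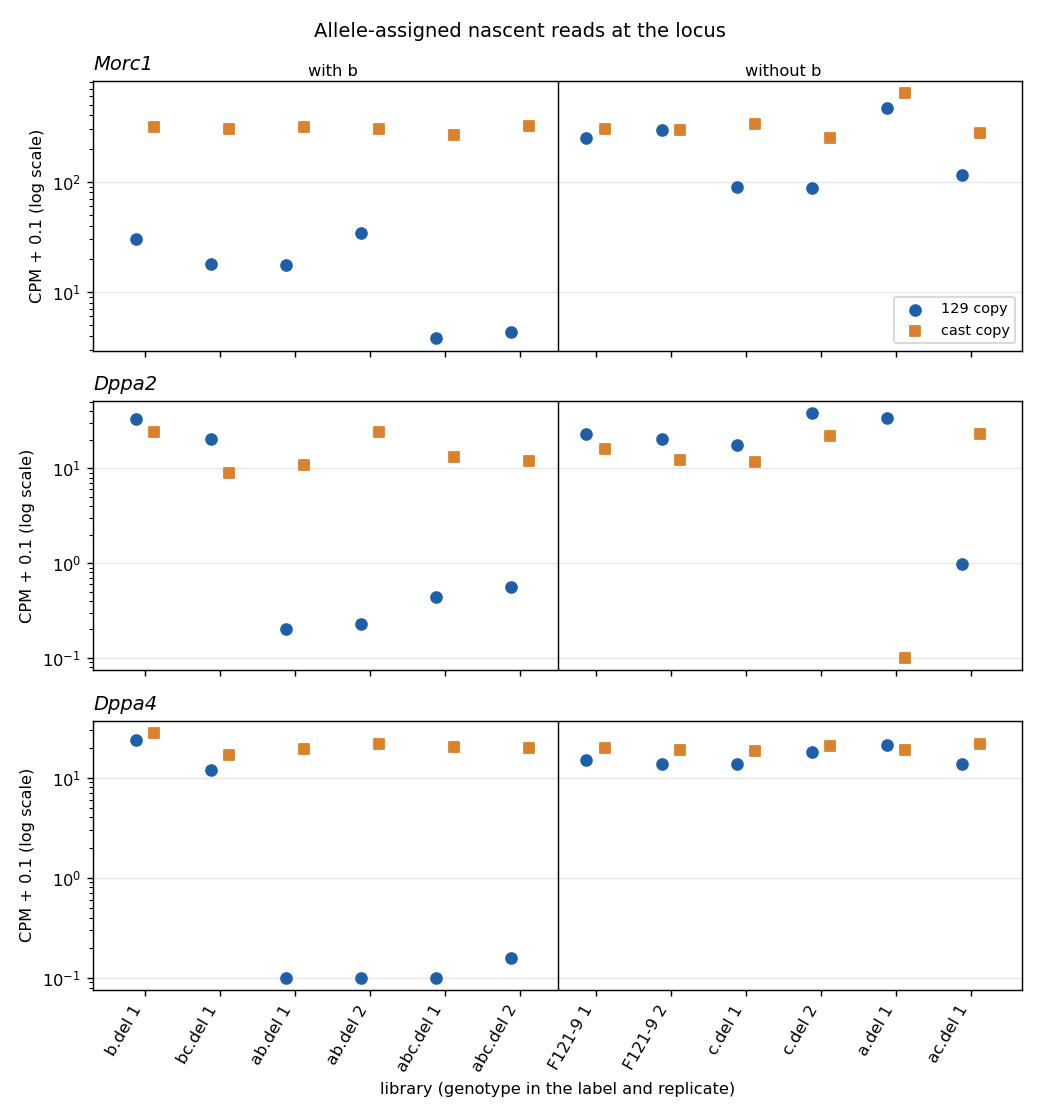
CPM + 0.1 of Morc1, Dppa2 and Dppa4 (y axis, log scale) from the 129 copy (circles) and the cast copy (squares) in each of the 12 libraries (x axis), with b on the left and without b on the right of the line. Morc1 from 129 reached at most 34.1 CPM with b and at least 87.7 CPM without b, while Dppa4 from 129 was near 0 only in the 4 libraries that name both a and b.

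The deposited table also lists 4 stretches named as Morc1 segments. Segment s1 (16:48437302-48511046) begins 6.07 kb past the start of Morc1, s2 (16:48511047-48581359) follows it, s3 (16:48620368-48630905) ends with the gene, and s4 (16:48630906-48655838) lies past the annotated end. On the 129 copy s1 gave 1.36 ± 1.03 CPM with b and 78.3 ± 48.5 CPM without b, a 57.6-fold lower level, with ranges of 0.172 to 2.93 and 35.7 to 159 CPM (exact permutation p = 0.0022, two-sided, unadjusted, the smallest that these group sizes allow). Segment s2 gave 7.87 ± 4.90 CPM with b and 86.7 ± 50.3 CPM without b, 11-fold lower, again without overlap (exact permutation p = 0.0022). Segment s3 gave 5.44 ± 6.34 CPM with b and 18.3 ± 15.6 CPM without b, 3.36-fold lower, and the groups overlapped (exact permutation p = 0.0368). Past the gene, s4 gave 2.93 ± 2.78 CPM with b and 20.5 ± 14.6 CPM without b, 7.02-fold lower, with 6.64 CPM as the highest value with b and 6.73 CPM as the lowest without b (exact permutation p = 0.0022). The ratio was thus greatest in the 5' segment.

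The make-up of the 129 reads differed as well. Segment s1 held 8.0 ± 3.53% of the Morc1 reads from 129 with b and 37.8 ± 3.81% without b, with ranges of 4.11% to 12% and 33.9% to 43.7% that did not overlap (exact permutation p = 0.0022, unadjusted, over 3 segments on each copy). These shares rest on 3 to 68 reads of s1 among 73 to 790 reads of Morc1 in the libraries with b, and on 615 to 3239 among 1512 to 9567 without b. Segment s2 held 54.9 ± 25.5% with b and 43.1 ± 6.49% without b (exact permutation p = 0.314). Segment s3 held 24.7 ± 16.9% with b and 7.98 ± 1.90% without b, with overlap (exact permutation p = 0.0498). The 129 reads of Morc1 outside s1 to s3 differed by c. They ran from 0 of 212 in bc.del to 45 of 1512 in c.del replicate 2 with c. Without c they ran from 1827 of 9567 in a.del to 93 of 334 in ab.del replicate 1. The total behind these shares thus differs by c as well. On the cast copy s1 held 44.0 ± 3.83% with b and 42.6 ± 1.00% without b (exact permutation p = 0.392). For the CPM levels of the 4 segments on cast, as distinct from these shares, the smallest exact permutation p was 0.513.

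**Figure D2:**
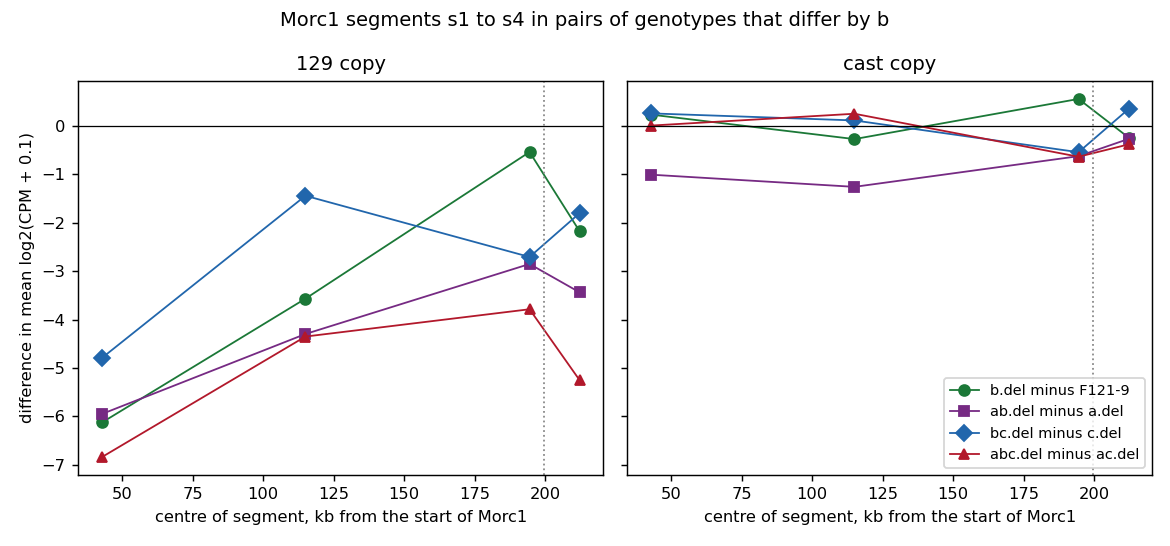
Difference in mean log2(CPM + 0.1) (y axis) between genotypes that differ by b, for segments s1, s2, s3 and s4 at their distance from the start of Morc1 (x axis, kb), on the 129 copy (left) and the cast copy (right); the dotted line marks the end of the gene. On 129 the s1 difference was -6.12 in b.del against F121-9, -5.95 in ab.del against a.del, -4.79 in bc.del against c.del and -6.84 in abc.del against ac.del, and on cast the lowest values in s1 and s2 were those of ab.del against a.del.

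Dppa4 (16:48283735-48294292), in contrast, was low on 129 only where the label held a and b together. The 4 libraries with both had 0, 0, 0 and 0.0574 CPM, or 1 read in all. With b and without a, b.del gave 23.8 CPM and bc.del 11.9 CPM, against 21.2 CPM in a.del and 13.7 CPM in ac.del, with a and without b, and 13.5 to 18.2 CPM in the 4 libraries with neither. The pair with b and without a thus lay just above and just below the range without b. The interaction of b with a was -7.43 on the log2(CPM + 0.1) scale (SE 0.62, limma adjusted p = 0.000854), the only 1 of 13340 genes to pass, or 0.0075%. Its size depends on the pseudocount because 3 of the 4 values are 0, and it passed in all 18 other settings, with adjusted p from 1.9e-05 to 0.0216. The background of this test is uneven, since 1429 genes (10.7%) had an unadjusted p under 0.05 and the group with a and without b is a.del and ac.del alone. The fit on 129 treats a.del and ac.del as alike, and which copy was edited in each is not stated. At Dppa2 they were unlike, with 0 CPM from cast in a.del and 0.888 CPM from 129 in ac.del. Without ac.del, leaving a.del with its single-parent chromosomes, 485 genes passed, and without c.del replicate 1 there were 2. On the cast copy Dppa4 gave 16.8 to 27.9 CPM with b and 18.3 to 21.5 CPM without b.

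Dppa2 (16:48310274-48319513) gave 0.104 to 0.460 CPM from 129 in the 4 libraries with a and b, or 20 reads in all, against 33.1 CPM for b.del and 20.5 CPM for bc.del, with b and without a. Without b, it gave 0.888 CPM in ac.del, 33.6 CPM in a.del, and 17.5 to 38.2 CPM in the libraries with neither. The low library without b, ac.del, lay close to those with a and b, and the interaction of b with a did not pass (-4.27, SE 1.45, limma adjusted p = 0.419). It did pass in some alternative settings, with adjusted p from 4.4e-05 to 0.729 over 18 of them. From cast, Dppa2 gave 8.82 to 24.3 CPM with b, and 11.4 to 23.2 CPM in the libraries without b other than a.del, which was at 0 reads. No gene passed for the interaction of b with c on 129 (0 of 13340 by limma, 794, or 5.95%, at an unadjusted p under 0.05). The 3 smallest p were those of Slc9b2 (-3.12), Bach2 (-2.04) and Rsph4a (-2.88), each with an adjusted p of 0.768.

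On 129, 3 further genes lying at most 1 Mb from Dppa2 or Dppa4 passed the filter. Cip2a, an inhibitor of protein phosphatase 2A, gave 57.0 ± 9.76 CPM from 129 with b and 50.3 ± 5.83 CPM without b. Dzip3, an RNA-binding ubiquitin ligase, gave 50.1 ± 9.99 and 58.8 ± 6.39 CPM, with b first, and both ranges overlapped between groups. Trat1, a T cell adaptor, was low throughout, at 1.20 ± 0.739 CPM with b and 1.15 ± 0.464 CPM without b. Two-sided exact permutation tests gave p = 0.177 for Cip2a, 0.0909 for Dzip3 and 0.714 for Trat1, unadjusted over 6 genes on 129. The exact permutation p was 0.0368 for Dppa4 and 0.0433 for Dppa2 over the same 6 and 6 libraries. Those tests do not separate b from a, which 4 libraries with b and 2 without b named. With b and without a, neither gene was low on 129. On cast none of 7 genes had an exact permutation p under 0.05. The lowest was that of 6430553K19Rik, with 0.229 ± 0.453 CPM with b and 0.556 ± 0.337 CPM without b (log2 difference -1.63, exact permutation p = 0.0519, limma adjusted p = 0.998). It was at 0 reads on cast in 4 of 6 libraries with b and at 3 to 25 reads in those without b, but its highest value, 1.13 CPM, was that of ab.del replicate 2, with b.

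Across the autosomes no gene passed the limma test for b with both copies averaged, with either copy alone or with the difference between copies. With both copies averaged 0 of 13396 genes passed by limma (0%). An unadjusted p under 0.05 was reached by 495 genes (3.7%), 386 lower (2.88%) and 109 higher (0.814%) with b. The same data gave 0 calls with edgeR (470 unadjusted) and 12 with DESeq2, 4 higher and 8 lower. On 129 alone 0 of 13340 passed, 344 were lower (2.58%) and 115 higher (0.862%) at an unadjusted p under 0.05 (3.44% in all), and the calls were 0 with edgeR and 5 with DESeq2. On cast 0 of 13161 passed, 405 were lower (3.08%) and 84 higher (0.638%) without adjustment (3.72% in all), and the calls were again 0 with edgeR and 5 with DESeq2. For 129 minus cast 0 of 12660 passed, 171 were lower (1.35%) and 420 higher (3.32%) without adjustment (4.67% in all), and edgeR called 0.

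The excess of lower genes depended on the scaling. Of the genes under an unadjusted p of 0.05, which differ between scalings, 22.02% were higher with b as deposited, 46.5% after median centring and 47.2% after quantile normalization. On 129 that share was 25.1%, against 28.5% and 36.9% under those scalings, and on cast 17.2%, against 31.7% and 35.0%.

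Counted over libraries, 21 genes had all 6 values with b below all 6 without b on the mean of both copies (0.157%) and 8 had them above (0.0597%), or 29 in all (0.216%). On 129 there were 11 below (0.0825%) and 10 above (0.075%), and on cast 19 below (0.144%) and 1 above (0.0076%), or 20 in all (0.152%), with 0 genes shared between the copies in either direction. For 129 minus cast there were 10 below (0.079%) and 26 above (0.205%), or 36 in all (0.284%). Several genes below, Adgrb2 among them, passed the filter through the libraries without b alone. Chromosomes 1 and 12 came almost wholly from 1 copy in a.del. They held Uck2, the 1 gene above on cast, Snapc1, Rian and Slc39a9 above on 129, and several of the genes for 129 minus cast. For these genes the a.del value cannot be read as a difference by b.

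Genes at least 2-fold lower with b in all 4 pairs numbered 8 on the mean of both copies (0.0597%), 13 on 129 (0.0975%), Morc1 among them, 29 on cast (0.22%) and 7 for 129 minus cast (0.0553%). At least 2-fold higher in all 4 pairs were 0, 1 (0.0075%), 2 (0.0152%) and 13 (0.103%) genes in the same order. Most of the lower genes on 129 and on cast averaged under 0.2 CPM with b. Those passed the filter through the libraries without b alone, so that these counts are no support for lower levels with b. The 1 higher gene on 129 was B3galt1, a galactosyltransferase gene, named after its values were seen. It averaged 0.473 CPM with b and 0.103 CPM without b, and passed the filter through the libraries with b alone.

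**Figure D3:**
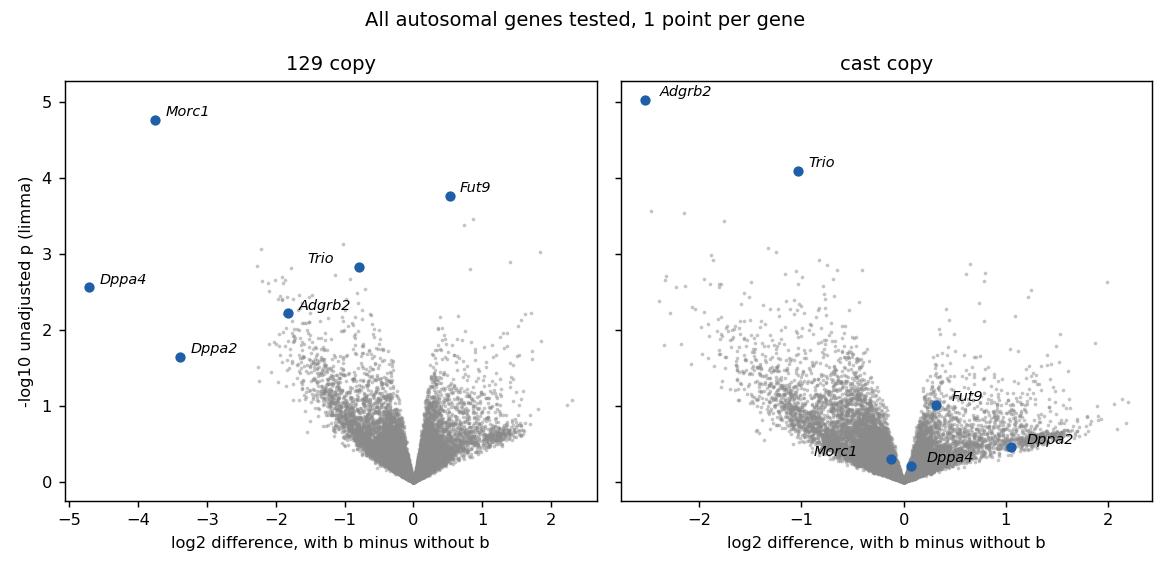
Log2 difference with b minus without b (x axis) against -log10 of the unadjusted limma p (y axis), 1 point per autosomal gene, for the 129 copy (left) and the cast copy (right), with 6 genes named. Morc1 has the smallest p on 129, at a difference of -3.75, and lies at -0.13 on cast, where Adgrb2 has the smallest p.

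Among the 10 genes of smallest p that were lower with b on both copies, Adgrb2 and Pkd1l2 were also at least 2-fold lower in all 4 pairs. Adgrb2, a brain adhesion receptor, was barely transcribed, with 0, 0.0130 and 0.109 CPM as the lowest, median and highest values with b, against 0.386, 0.494 and 0.801 CPM without b. That is 7 reads in 6 libraries with b and 133 in 6 without b, and the groups did not overlap (log2 difference -2.31, SE 0.36, limma adjusted p = 0.109). Its mean passed the filter of 0.2 CPM through the libraries without b alone, as that of Robo4 did, so that neither is support for lower levels with b in general. It passed with no filter on low genes (adjusted p = 0.0135), with eBayes without trend (0.00141) and by DESeq2 (0.00715), and missed the threshold in the other 28 settings.

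Pkd1l2, a polycystin family gene, gave 0.957, 1.94 and 3.37 CPM with b against 5.45, 5.96 and 10.7 CPM without b (-1.69, SE 0.31, limma adjusted p = 0.326). Trio, a guanine nucleotide exchange factor, gave 25.6, 33.3 and 52.1 CPM with b against 50.1, 67.1 and 86.5 CPM without b (-0.90, SE 0.18, limma adjusted p = 0.534). Only the b.del value of Trio, 52.1 CPM, reached into the range without b. The other 7 were 2510009E07Rik, Nlrp4f, an oocyte NLR gene, Ephb1, an ephrin receptor, Stxbp3, which binds syntaxins, Robo4, a Roundabout receptor of endothelium, Phlpp2, a phosphatase that acts on AKT, and Kctd8, a subunit of GABA-B receptor complexes. Their differences ran from -1.93 for Robo4 to -0.50 for Stxbp3, all with an adjusted p of 0.999, and all were lower in 4 of 4 pairs. Stxbp3 lies on chromosome 3, as does Zfhx4, which was higher with b, and Phlpp2 and Pkd1l2 lie on chromosome 8. On both copies the median genes of chromosomes 3 and 8 differed by -0.21 and -0.17. Without a.del, ac.del and c.del replicate 1 they differed by -0.04 and -0.07. The part of these unequal chromosomes in single genes was not tested.

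Among the 10 genes higher with b, Fut9, whose fucosyltransferase makes the SSEA-1 epitope of mouse embryonic stem cells, gave 333, 359 and 401 CPM with b against 226, 247 and 369 CPM without b (0.44, SE 0.12, limma adjusted p = 0.999). Of the libraries without b, only c.del replicate 1, at 369 CPM, reached the range with b. Atp1b2, a sodium pump subunit, gave 0.526, 0.895 and 1.30 CPM with b against 0, 0.121 and 0.464 CPM without b, which did not overlap (1.94, SE 0.44), and its mean passed the filter through the libraries with b alone. Zfhx4, a homeobox zinc finger gene, averaged 6.70 ± 1.64 CPM with b and 3.19 ± 0.952 CPM without b, and Pclo, a presynaptic scaffold, 36.5 ± 12.3 and 17.4 ± 5.35 CPM in that order. Pclo and Fign were higher in 3 of 4 pairs and the other 8 of these 10 genes in all 4. The other 6 were Pam, which amidates peptides, Slc35f2, a solute carrier, Fras1, a basement membrane protein, Fign, a microtubule-severing ATPase, Rffl, a ubiquitin ligase, and Rgs20, a regulator of G protein signalling, with differences from 0.52 for Rffl to 0.91 for Rgs20 and an adjusted p of 0.999 each. All 20 genes kept their direction within both runs of sample numbers. DESeq2 called Adgrb2, Pkd1l2, Trio, 2510009E07Rik, Nlrp4f, Kctd8, Zfhx4, Pclo, Slc35f2 and Fras1, with adjusted p from 0.00028 to 0.0426.

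**Figure D4:**
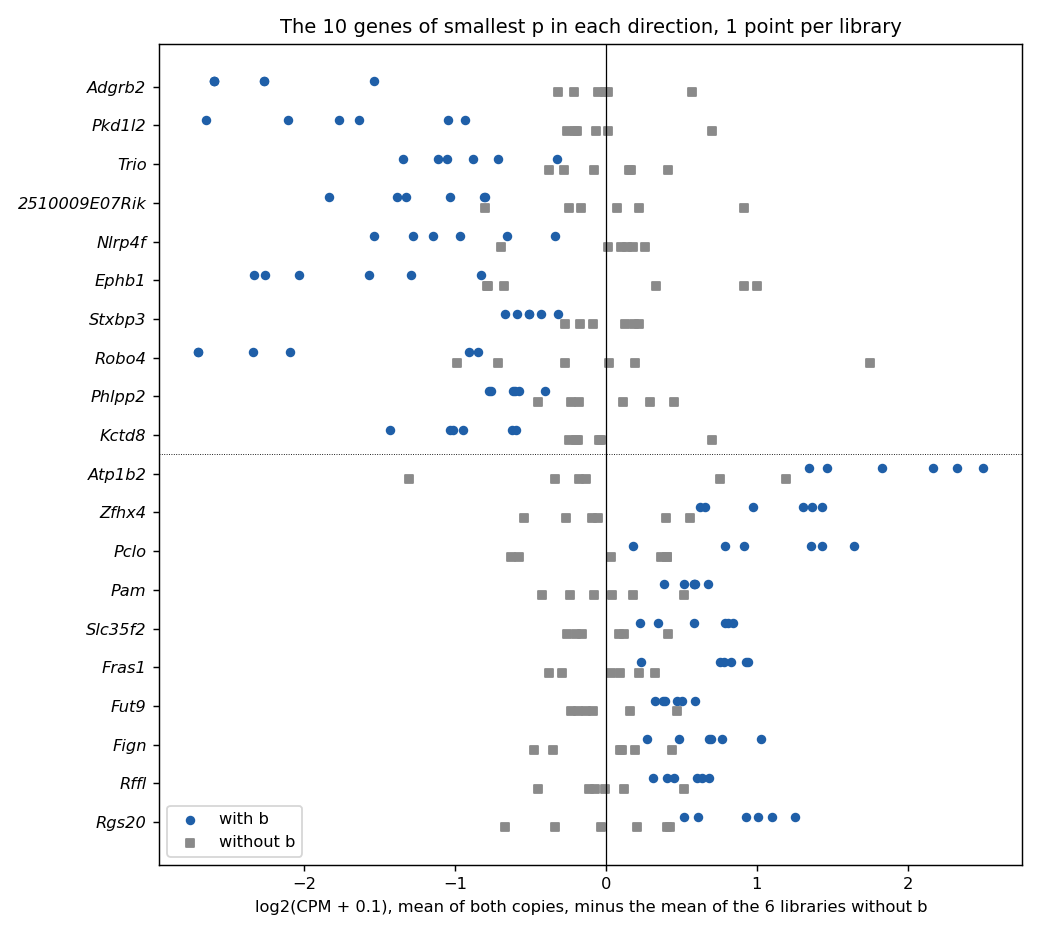
Log2(CPM + 0.1) of the mean of both copies minus the mean of the 6 libraries without b (x axis) for the 10 genes of smallest p lower with b (above the dotted line) and the 10 higher (below it), 1 point per library, with b as circles and without b as squares. Adgrb2 and Pkd1l2 show no overlap, and in Trio and Fut9 single libraries overlap.

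On single copies the leading genes differed from each other. On 129, after Morc1, the lower genes of smallest p were Kctd8 (3.59 ± 0.755 CPM with b and 7.44 ± 2.15 CPM without b) and Nfe2, an erythroid transcription factor, with 1 read in 6 libraries with b and 61 in 6 without b, which passed the filter through the libraries without b alone. The higher ones were Fut9 (444 ± 20.9 CPM with b and 311 ± 46.1 CPM without b), Apela, a peptide ligand of the apelin receptor (18.1 ± 2.53 and 10.0 ± 2.19 CPM in that order), and Slc35f2 (42.5 ± 6.31 and 25.6 ± 5.77 CPM). The Fut9 and Apela values of the 2 groups did not overlap on 129.

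On cast, the lower genes of smallest p were Adgrb2 (2 reads with b, 76 without b), Trio (32.3 ± 8.42 CPM with b and 65.9 ± 14.1 CPM without b) and the interferon-induced Ifi35 (16 reads with b, 115 without b), of which Adgrb2 and Ifi35 passed the filter through the libraries without b alone. The higher ones were Rffl, Fras1 and Lifr, the receptor for LIF, which gave 154 ± 27.4 CPM with b and 101 ± 19.8 CPM without b. The unequal genes between copies, after Morc1, were Stx2 (-0.75) and 1600002D24Rik (-1.41), lower on 129 relative to cast with b, and Jund (2.49), Tsc2 (0.85) and Sertad1 (2.04), higher. None of these genes passed in its limma fit (adjusted p of 0.124 for Adgrb2, 0.533 for Trio and 0.861 or more for the rest).

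Gene lists were described by counts and medians beside the median of all genes, -0.05 on both copies. Of 36 germline and meiosis genes 32 were measured, 25 lower and 7 higher with b, with a median of -0.47. None passed, and 6 had an unadjusted p under 0.05, all lower, against 2.88% of all genes. Piwil2, a piRNA-binding Argonaute of the germline, gave 2.60 ± 0.730 CPM with b and 4.71 ± 1.29 CPM without b. Mael, of the same pathway, gave 0.576 ± 0.177 CPM with b and 1.34 ± 0.712 CPM without b.

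Sycp1, a protein of the synaptonemal complex, gave 0.651, 1.10 and 5.24 CPM with b against 1.62, 3.27 and 19.08 CPM without b. The 2 highest values without b, 19.08 and 14.5 CPM, were those of F121-9, the only ones of the 12 libraries with balanced X reads. Without both F121-9 libraries the germline list had 20 genes lower and 12 higher, with a median of -0.17 against -0.10 for all genes. Without a.del, ac.del and c.del replicate 1, the libraries of unequal autosomes, it had 28 lower and 4 higher, with a median of -0.85 against -0.04. The median was -0.30 without F121-9 replicate 2 alone and -0.31 without abc.del replicate 1 alone. The part of the X in these values was not tested.

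The medians of the other lists lay between -0.08 and 0.10. Of 15 naive pluripotency genes measured, 8 were higher and 7 lower with b, with a median of 0.05. Lifr had the smallest p, at 205 ± 44.6 CPM with b and 148 ± 21.0 CPM without b (0.45, SE 0.15, limma adjusted p = 0.999). Of 13 formative and primed genes 6 were higher, and Otx2, a factor of the exit from naive pluripotency, gave 1.03 ± 0.619 CPM with b and 0.453 ± 0.192 CPM without b. Of 21 imprinted genes measured 10 were lower, with a median of 0.04. Peg10, a retrotransposon-derived gene expressed from the paternal copy, gave 1.81 ± 0.550 CPM with b and 3.36 ± 1.08 CPM without b without overlap, and its neighbour Sgce gave 2.18 ± 0.672 CPM with b and 3.91 ± 1.52 CPM without b. The 3 highest imprinted genes, Meg3 (2.19), Rian (2.09) and Mirg (1.56), named after their values were seen, lie in 1 cluster on chromosome 12, which came almost wholly from cast in a.del.

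Core pluripotency genes had a median of 0.04 over 12 genes, MORC family and silencing genes -0.02 over 17, DNA replication genes 0.02 over 37, p53 and its targets -0.00 over 15, immediate early genes 0.10 over 6, cohesin and CTCF genes 0.03 over 11 and polycomb genes 0.01 over 13. Several of these medians depended on the libraries used. Those of p53 and its targets, immediate early genes and core pluripotency genes were 0.34, 0.73 and 0.32 in the first run of sample numbers and -0.17, -0.03 and -0.08 in the second, where all genes had medians of 0.03 and -0.10. No member of these lists had an unadjusted p under 0.05 on both copies. Of 25 two-cell stage genes 23 were in the table and 0 reached a mean of 0.2 CPM on both copies. On 129, Zscan4d had 0 reads in the 6 libraries with b and 0.565 ± 0.574 CPM without b, and Usp17le gave 0.0269 ± 0.0442 CPM with b and 0.378 ± 0.399 CPM without b. Both passed the filter through the libraries without b alone, and both belong to families of near-identical copies, so that their reads are uncertain and nothing is read from the difference.

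**Figure D5:**
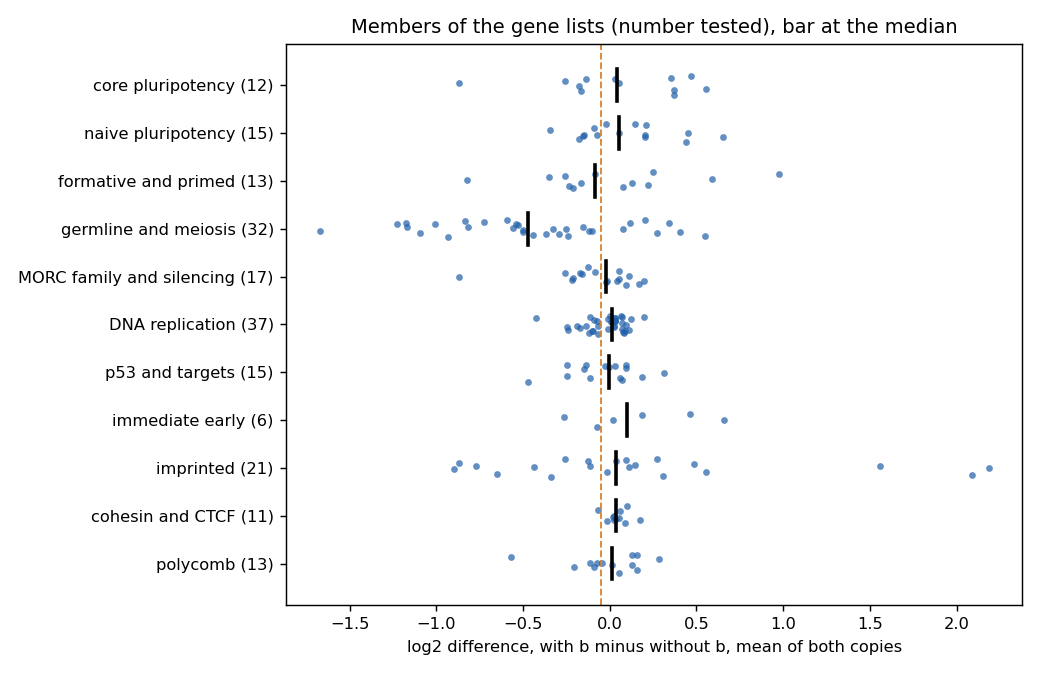
Log2 difference with b minus without b on the mean of both copies (x axis) for each measured member of 11 gene lists (rows, number measured in brackets), with a bar at the median of each list and a dashed line at the median of all genes. The germline and meiosis list has a median of -0.47, and the medians of the other lists lie between -0.08 and 0.10.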

How the data were processed

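The deposited table holds CPM values (counts per 1000000 reads of that copy) for the 129 and the cast copy of each library, 32 columns in all. Per the submitters' processing notes the authors used Bowtie2, bedtools and mm10, with versions not given in the sources used here. Clipping, a mapping quality cut of 10 and a split by homozygous SNPs are recorded per the file headers, and the copy they call reference was taken as 129. The name of the deposited file speaks of RPKM, but columns sum to 1000000 and no division by length was found. Recovered reads (CPM over the smallest value above 0) were whole within 0.01 for 100% of values, and were used for read counts, intervals, edgeR 4.0.16 and DESeq2 1.42.0.

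For each symbol the widest line was used, on autosomes only. Genes with a mean of at least 0.2 CPM over the 12 libraries were fitted as log2(CPM + 0.1) in R 4.3.3 with limma 3.58.1, whose eBayes step used a trend, and two-sided p-values were adjusted over all genes by Benjamini-Hochberg at 0.05. Fold changes on this scale understate those of low genes. Interactions were coefficients of models with sites a, b and c. Single genes of the locus and segments were tested by two-sided exact permutation of the library labels. Their p-values are unadjusted: the planned adjustment over locus genes alone is not given, since members and lists were chosen with earlier results of these data known. A deposit block is 1 of 2 stretches of consecutive sample numbers (7 and 5 of the 12 libraries), whose meaning the labels do not state. Named genes were the locus genes, the 10 smallest p in each direction on both copies (none passed), the 3 smallest p elsewhere, and members of lists. Genes named for DESeq2 calls, Zscan4d, Usp17le and the imprinted genes on chromosome 12 were named after their values were seen. So were B3galt1 and the genes without overlap on chromosomes 1 and 12. The scripts were tested on simulated data. Other steps ran in Python 3.11.15, with exact tests in scipy 1.17.1, tables in pandas 2.3.3, arrays in numpy 2.4.6 and plots in matplotlib 3.10.9.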

Additional observations from a re-analysis of the deposited data

Results flagged for a closer look

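Single libraries stood apart from the other 5 of their group, by a gap to the nearest value over the whole range above 0.625, in 16 of 104 groups tested; chance flags about 1 in 20 groups. On the 129 copy, Dppa2 in ac.del without b (gap share 0.788) gave 0.888 CPM while the others had 17.5 to 38.2, and 6430553K19Rik in bc.del (1) and Nfe2 in ab.del replicate 2 (1) were the only libraries with b above 0. Kctd8 from 129 in c.del replicate 2 (0.781) gave 11.8 CPM, above 6.05 to 7.00 in the others without b. On the cast copy, Dppa2 in a.del (0.871) had 0 CPM, Morc1 in a.del (0.681) had 635 CPM, Morc1 in abc.del replicate 1 (0.714) had 265 CPM, Trat1 in abc.del replicate 2 (1) had 0.0610 CPM and Fras1 in abc.del replicate 2 (0.688) had 7.32 CPM.

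On the mean of both copies, libraries with b that stood apart were abc.del replicate 1 for Morc1 (0.689, at 134 CPM), ab.del replicate 2 for Adgrb2 (0.685, at 0.109 CPM) and abc.del replicate 2 for Fras1 (0.743, at 6.16 CPM). Without b they were c.del replicate 2 for Adgrb2 (0.626, at 0.801 CPM) and for Kctd8 (0.776, at 6.29 CPM), ac.del for Pkd1l2 (0.718, at 10.7 CPM) and c.del replicate 1 for Nlrp4f (0.743, at 5.72 CPM).

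The difference with b depended on the letter a in the label for Dppa4 from 129, with an interaction of -7.432 by limma (adjusted p = 0.000854). That fit treats a.del and ac.del as alike, and which copy was edited in each is not stated.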

How the results depend on the processing

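No paired test was run. Only the 2 F121-9 libraries carry replicate numbers in the labels, and both are without b, so that single libraries could not be paired by number. The 4 pairs of genotypes that differ by b were compared by their differences and by terms for sites a and c. Limits include depth for genes under the floor of 3 reads, the unequal X and autosomes, and single libraries of b.del, bc.del, a.del and ac.del. Genes passing for b on both copies were 0 as reported, 1 with no filter, 1 with eBayes without trend, 3 with sites a and c and deposit block as terms (Eya1, Pcx and Pkd1l2) and 12 by DESeq2. On 129 they were 0, and 1 (Morc1) with sites a and c as terms, with block added, or without chromosomes 1, 3 and 12, 2 without the 3 libraries of unequal autosomes (Pdzrn3 and Tmem132d, and not Morc1), and 5 by DESeq2. On cast they were 0, and 1 with no filter or eBayes without trend, and 5 by DESeq2. For b with a on 129 the count of 1 became 4 at a pseudocount of 0.01, and leaving out 1 library gave 1 to 485.

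Locus genes with an unadjusted exact p under 0.05 numbered 1 on both copies, 2 after quantile normalization, 0 in the second deposit block (where 0.1 is the smallest p possible) and 1 to 3 leaving out 1 library. On 129 they numbered 3, and 1 with 1 value per genotype, 1 in the first block, 0 in the second, 1 without the 3 libraries and 2 to 3 leaving out 1 library. On cast they numbered 0, and 1 at a pseudocount of 0.01, 1 after median centring and 0 to 1 leaving out 1 library. Morc1 in the second block gave -0.62 on both copies and -2.39 on 129, past no threshold there.

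The signs of other differences turned, none of them past a threshold after adjustment, and the cause was not tested. In the first block they were Dppa4 cast (-0.00076), Dppa2 cast (-0.24), Trat1 129 (0.073), Dzip3 129 minus cast (0.048), Myc (0.76) and Nipbl (-0.060). In the second they were Dppa2 (0.026), Dzip3 (0.056 on both copies, 0.15 on cast), Tet2 (0.10), Grhl2 (0.016), Bax (-0.029), Perp (0.058) and Grb10 (0.78). Without the 3 libraries they were Dppa2 cast (-0.17), Morc1 cast (0.11), Trat1 (0.15 on both copies, 0.21 on 129) and Setdb1 (0.033). Trat1 also turned after quantile normalization (0.077 on both copies, 0.033 on 129), by edgeR (0.056) and by DESeq2 (0.054), Myc with block as a term (0.14) and Esco2 without both F121-9 libraries (-0.0049). Leaving out 1 library gave -0.013 to 0.13 for Dppa4 cast, -0.18 to 1.40 for Dppa2 cast, -0.21 to 0.060 for Morc1 cast, -0.36 to 0.13 and -0.38 to 0.18 for Trat1 on both copies and 129, -0.11 to 0.010 for Dzip3 129 minus cast, -0.026 to 0.12 for Cip2a cast, -0.78 to 0.045 for Perp and -0.93 to 0.24 for Myc. All other named results kept their direction. List medians moved too: leaving out 1 library gave -0.62 to -0.30 for germline genes, -0.31 to 0.42 for immediate early genes, -0.27 to 0.16 for formative genes and -0.11 to 0.11 for p53 and its targets. Without both F121-9 libraries the medians were -0.29 for p53 and its targets, -0.28 for formative genes and -0.18 for core pluripotency genes, against -0.10 for all genes.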
